A study of Mus musculus with 12 samples.

Results

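The mast cell genes were 7 genes, Cpa3, Cma1, Mcpt4, Tpsb2, Fcer1a, Ms4a2 and Hdc, taken as every probe whose gene name on the array equals one of these symbols. They were read by 8 probes of the 41174 probes for transcripts, and the array names 27373 genes in all. Cma1 has 2 probes and each of the other members has 1. The arrays measured RNA of whole back skin of male C57BL/6J mice, 8 weeks old, which were shaved and from the next day received 200 µL a day on the back of 3% minoxidil (MXD, a drug that promotes hair growth), 10% cell extract of the cactus Notocactus ottonis (N-CE) or the vehicle (VC, propylene glycol, ethanol and water). Skin was taken after 1, 2 or 3 weeks (1W, 2W, 3W). RNA of 6 mice was pooled for each treatment and week, so there were 9 pools. Each MXD pool and each N-CE pool was hybridized together with the same week's VC pool to 2 arrays with the dyes exchanged (a dye swap), with the treated pool in Cy5 on array 1 and in Cy3 on array 2, which gave 6 comparisons on 12 arrays. Every pool, VC included, came from shaved skin.

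Mast cells are tissue-resident immune cells that are numerous in the dermis, where they lie along vessels, nerves and hair follicles. Their granules hold proteases bound to heparin, chymases, tryptases and a carboxypeptidase, together with histamine, and they release this content when the high-affinity IgE receptor on their surface is cross-linked or when other receptors are triggered. In mouse skin they also produce prostaglandins and leukotrienes, and they depend on the receptor Kit and its ligand for survival. In RNA of whole skin, fewer mast cells and less of these RNAs in each cell cannot be told apart.

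The probes are single strands of 60 bases, and the values below rest on their binding. The 4 printed here, from the 5′ end, belong to the 3 genes that passed the call criterion in any comparison and to Tpsb2, whose 2 arrays often disagreed.

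Cpa3, probe A_51_P214127: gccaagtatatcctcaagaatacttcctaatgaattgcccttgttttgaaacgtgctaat
Cma1, probe A_51_P514029: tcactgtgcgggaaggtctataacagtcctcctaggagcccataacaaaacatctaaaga
Hdc, probe A_51_P254656: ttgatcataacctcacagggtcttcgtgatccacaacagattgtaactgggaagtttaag
Tpsb2, probe A_52_P254155: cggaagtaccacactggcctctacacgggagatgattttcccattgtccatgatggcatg

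The array design places the Cpa3 probe at chr3:20115674-20115733 on the minus strand of the mouse build mm9, and the Hdc probe at chr2:126419516-126419575, also on the minus strand. Cma1 probe A_51_P514029 runs from chr14:56561491-56562550, so that its 60 bases span 1060 bases of genome and cross an intron. The other Cma1 probe, A_51_P514035, lies at chr14:56560454-56560513 and the Mcpt4 probe at chr14:56678589-56678648, on the same strand of the same chromosome. The Tpsb2 probe lies at chr17:25504458-25504517 on the plus strand, the Fcer1a probe at chr1:175152865-175152924 and the Ms4a2 probe at chr19:11691778-11691837, the last 2 on the minus strand. Each probe's transcript accession carried the same gene symbol in the RefSeq gene table.

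Values are the log2 ratio of treated over VC in the deposited files, given for array 1 and array 2, with the mean ± SD over these 2 arrays. The SD is technical, since both arrays hold the same 2 pools, and no test across mice was possible within a week. A probe was called up-regulated or down-regulated by a criterion built from the study's limits, in which the scanner software's P for the spot is under 0.01 on each of the 2 arrays, their signs are equal, and the mean fold is above 1.5 or below 0.75. The share of all probes called gives the background of each count. The arrays of a dye swap correlated between -0.17 (N-CE at 2W) and 0.71 (MXD at 2W) over probes well above background in both pools. Of the spots, 57.0% to 65.0% were well above background in Cy3 and 61.3% to 69.6% in Cy5, and none was saturated.

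Over the 6 comparisons, mast cell genes were called in 2. At 1W of MXD, Hdc was up-regulated, 1 of 8 probes, where 0.685% of all probes were called higher and 0.765% lower. At 2W of MXD, Cpa3 and both probes of Cma1 were down-regulated, 3 of 8 probes, where 5.82% of all probes were called lower and 4.04% higher. Among the 24332 probes well above background in both pools at 2W of MXD, the share called lower was 9.31%. On array 2 alone the criterion added Mcpt4 and Tpsb2, 5 of 8 probes lower at 2W of MXD, where 9.25% of all probes were, and it added Fcer1a at 1W, 2 of 8 probes higher, where 1.63% were. In the other 4 comparisons 0 of the 8 probes were called in either direction. There the share of all probes called higher and lower was 0.144% and 0.161% for 3W of MXD, 0.292% and 1.49% for 1W of N-CE, 0.0682% and 0.0511% for its 2W, and 0.151% and 0.139% for its 3W, so that a count of 0 among 8 probes lies near the background. Array 2 alone gave 2 of 8 probes lower at 2W of N-CE, again Mcpt4 and Tpsb2, where 1.45% of all probes were.

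**Figure D1:**
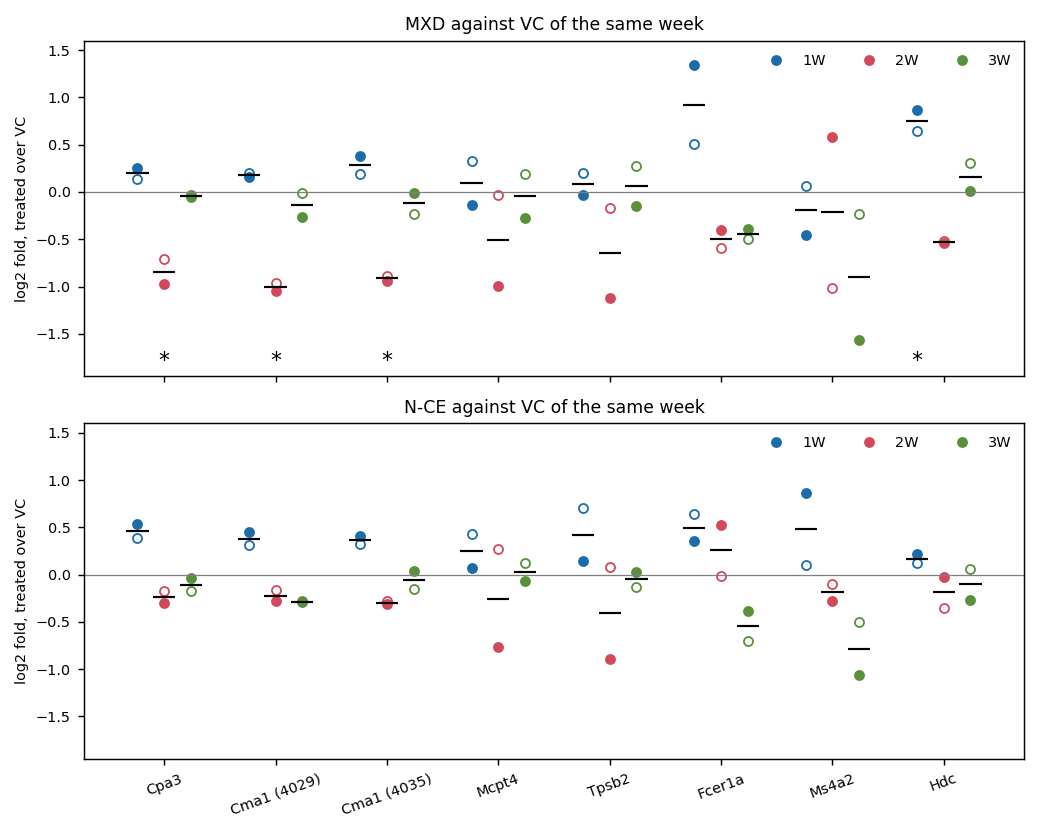
The log2 fold of treated over VC is plotted for each of the 8 probes, with MXD above and N-CE below. Open circles are array 1, filled circles are array 2, black bars are the mean of both, colours are the weeks and asterisks mark the called values. The red points of MXD at 2W lie below 0 for Cpa3, both Cma1 probes (named by the last digits of the probe) and Hdc on both arrays, with Cma1 near -1.0 and -0.91, whereas the blue points of N-CE at 1W all lie above 0.

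Cpa3 encodes mast cell carboxypeptidase A3, a granule protease stored with the chymases. With MXD at 1W its log2 fold was 0.14 on array 1 and 0.25 on array 2, a mean of 0.20 ± 0.08. At 2W it was -0.71 and -0.98, a mean of -0.84 ± 0.19 and a fold of 0.557, and it was called down-regulated. At 3W it was -0.03 and -0.05. The lower value was seen on both arrays of 2W, and both arrays of 3W lay near 0. Of the probes well above background, 7.0% had a lower fold than Cpa3 at 2W of MXD. With N-CE, 1W gave 0.38 and 0.54 (mean 0.46 ± 0.11), 2W gave -0.18 and -0.29 (mean -0.24 ± 0.08), and 3W gave -0.18 and -0.04 (mean -0.11 ± 0.10). The signs were the same on both arrays in each week, and none passed the fold criterion.

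Cma1 encodes the chymase of connective tissue mast cells, the kind that populates the dermis. Its probe across the intron, A_51_P514029, gave 0.20 and 0.16 in the first week of MXD, -0.96 and -1.04 after 2W (mean -1.0 ± 0.06, fold 0.499) and -0.01 and -0.27 after 3W. The other probe, A_51_P514035, gave 0.20 and 0.38 after 1W, -0.89 and -0.94 after 2W (mean -0.91 ± 0.04, fold 0.531) and -0.23 and -0.01 after 3W. Both probes were called down-regulated at 2W, each on both arrays. Under normexp background correction with loess these means became -0.72 and -0.92. With N-CE at 1W the 2 probes gave means of 0.38 ± 0.10 and 0.36 ± 0.06, above 0 on all 4 readings. With N-CE at 2W the means were -0.22 ± 0.09 and -0.30 ± 0.03, below 0 on all 4 readings. At 3W of N-CE they were -0.29 ± 0.01 and -0.06 ± 0.14, so the probes stood apart there by more than the spread of either.

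Mcpt4 encodes another chymase of connective tissue mast cells, which cleaves extracellular matrix and activates other enzymes. After 2W of MXD its log2 fold was -0.03 on array 1 and -0.99 on array 2, a mean of -0.51 ± 0.68, and it was not called. The 1W arrays gave 0.33 and -0.13, and the 3W arrays 0.19 and -0.28. The signs of the 2 arrays were opposite in both of these weeks. With N-CE, 1W gave 0.43 and 0.07, 2W gave 0.27 and -0.77, and 3W gave 0.13 and -0.06. Array 1, with the treated pool in Cy5, was above array 2 in 6 of 6 comparisons, by 0.58 on average. The study has Mcpt4 among the decreased entries at 2W of MXD in a list that its proteome section cites. Protein was not measured on these arrays.

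Tpsb2 encodes a tryptase of the granule, active as a tetramer on heparin. After 2W of MXD it gave -0.17 on array 1 and -1.12 on array 2, a mean of -0.64 ± 0.67 that was not called. The 1W arrays gave 0.20 and -0.03 and the 3W arrays 0.27 and -0.15, with opposite signs in both weeks. With N-CE, 1W gave 0.70 and 0.15 (mean 0.42 ± 0.39), 2W gave 0.08 and -0.90 (mean -0.41 ± 0.69), and 3W gave -0.13 and 0.03. Array 1 was above array 2 in 5 of 6 comparisons, by 0.50 on average over all 6. For Cpa3 and the 2 Cma1 probes this average difference was 0.00, 0.06 and -0.10. The mean over a dye swap cancels a difference between the dyes that is the same on both arrays, and the SD of Mcpt4 and Tpsb2 holds it. The probe of Tpsab1, the neighbouring tryptase gene most similar to Tpsb2, was not well above background in either pool of any comparison.

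**Figure D2:**
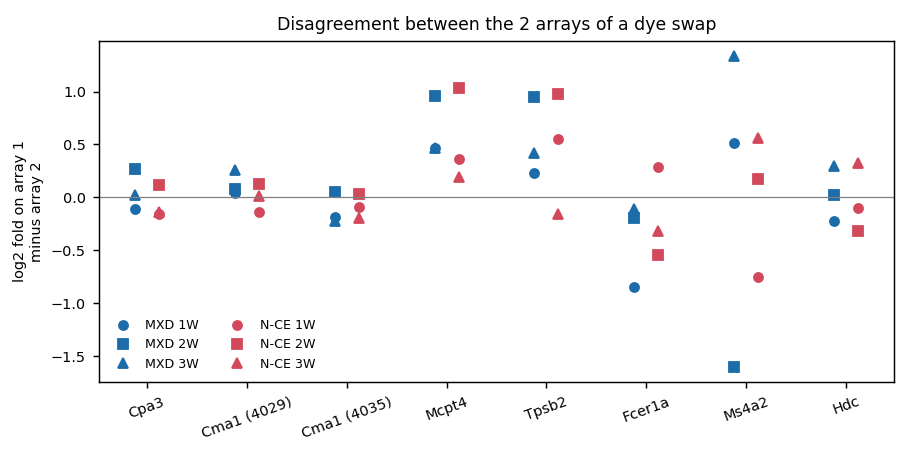
The log2 fold on array 1 minus that on array 2 is plotted for each probe, in blue for MXD and red for N-CE, with circles for 1W, squares for 2W and triangles for 3W. A point at 0 is a fold that was the same on both arrays. Mcpt4 lies above 0 in 6 of 6 comparisons and Tpsb2 in 5 of 6, with their largest differences, 0.95 to 1.04, at 2W, whereas Ms4a2 ranges from -1.60 to 1.33.

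Fcer1a encodes the alpha chain of the high-affinity IgE receptor, the chain that binds IgE. It was well above background in 23 of 24 readings, counting both channels of the 12 arrays. With MXD at 1W its log2 fold was 0.50 and 1.34, a mean of 0.92 ± 0.59. It was not called because the spot's P on array 1 was 0.063, and with normexp and loess the mean was 0.40. The 2W arrays gave -0.59 and -0.40 and the 3W arrays -0.50 and -0.39, below 0 on all 4, again without a call. With N-CE, 1W gave 0.64 and 0.36, 2W gave -0.01 and 0.53, and 3W gave -0.70 and -0.38 (mean -0.54 ± 0.23). Of the probes well above background, 0.82% had a lower fold at 3W of N-CE. With normexp and loess that value was -0.10.

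Ms4a2 encodes the beta chain of the same receptor, which amplifies its signal. It was the dimmest member, well above background in 14 of 24 readings, and its arrays spread most, with a median SD of 0.46 over the comparisons. After 2W of MXD it gave -1.01 on array 1 and 0.58 on array 2, a mean of -0.22 ± 1.13. The other weeks of MXD gave 0.06 and -0.45 (1W) and -0.24 and -1.57 (3W). With N-CE, 1W gave 0.11 and 0.86, 2W gave -0.10 and -0.28, and 3W gave -0.50 and -1.06. The treated pool was not well above background on either array at 3W of MXD and at 2W and 3W of N-CE, and the VC pool was above it on 1 of 2 arrays each time. Treated signals under the lowest signal measured above background were raised to it. Ms4a2 was then 1.07-fold, 1.04-fold and 1.11-fold lower in these 3 comparisons, from means of normalized levels. At 2W of N-CE no signal needed raising. The folds are not firm lower bounds, since the VC mean includes 1 array that was not above background. These folds are close to 1, so the arrays did not resolve Ms4a2 there.

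Hdc encodes histidine decarboxylase, the enzyme that makes histamine, and is also expressed in neutrophils and basophils. With MXD at 1W its log2 fold was 0.64 and 0.87, a mean of 0.76 ± 0.16 and a fold of 1.69, and it was called up-regulated. Of the probes well above background, 0.782% had a higher fold. Within the same comparison the neutrophil markers stood at a median log2 fold of 1.82 over 5 genes above background, and 4 of the 5 were called higher. The share called higher there was 0.685% of all probes and 1.06% of those well above background in both pools. S100a8 and S100a9, the calprotectin chains, had 2.89 ± 0.00 and 2.51 ± 0.14, Cxcr2, a chemokine receptor, had 1.78 ± 0.27, and Mmp8, a collagenase of neutrophil granules, had 1.82 ± 0.06. For Cxcr2 and Mmp8 the VC pool was not well above background on either array. With normexp and loess these 2 genes had 0.36 and 0.27, whereas S100a8 and S100a9 had 2.69 and 2.46. The neutrophil median was then 0.36. The part of these cells in the rise of Hdc was not tested. After 2W of MXD Hdc gave -0.52 and -0.54, a mean of -0.53 ± 0.02, past the fold of 0.75 but with a spot P of 0.014 and 0.012, and it was not called. The 3W arrays gave 0.30 and 0.01. With N-CE, 1W gave 0.12 and 0.21, 2W gave -0.35 and -0.03, and 3W gave 0.06 and -0.27.

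As a group, the members had a median log2 fold, taken over the 7 genes with the brighter probe for Cma1, that went from 0.20 in the first week of MXD to -0.53 in the second and -0.04 in the third. With N-CE the medians of the same weeks were 0.42, -0.24 and -0.10. The median of MXD at 2W was -0.59 on array 1, -0.94 on array 2 and -0.64 with dim probes left out. The median over all probes well above background lay between 0.00 and 0.05 in these comparisons. In the MXD comparison of 2W, 8 of 8 probes had a mean below 0 and 7 of 8 were below 0 on both arrays, where 32.2% of the probes well above background were. After normexp and loess 7 of 8 means stayed below 0, and Ms4a2 stood at 0.01. At 1W of N-CE 8 of 8 probes were above 0 on both arrays, with means from 0.17 to 0.50, where 35.5% of probes were. None of these 8 values reached a fold of 1.5, and after normexp and loess the median in that comparison was 0.24. The comparisons of a week share their VC pool, and the 4 granule proteases are near-neighbours in function and partly in the genome, so the members do not count as separate evidence.

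The direct difference between the treatments, MXD minus N-CE in the same week, does not contain the VC pool if both hybridizations read it alike. At 2W this difference was -0.61 ± 0.11 for Cpa3, -0.78 ± 0.03 and -0.62 ± 0.01 for the 2 Cma1 probes and -0.76 ± 0.25 for Fcer1a, with both arrays below 0. It was -0.26 ± 0.05 for Mcpt4 and -0.24 ± 0.02 for Tpsb2, and the 2 readings of each were close. For the dim Ms4a2 it was -0.91 on array 1 and 0.86 on array 2. For Hdc it was 0.59 ± 0.09 after 1W, -0.34 ± 0.24 after 2W and 0.26 ± 0.02 after 3W. At 3W the differences of the 5 protease probes lay between -0.07 and 0.15. The levels of the treated pools themselves, normalized log2 signals compared after the data had been seen, gave smaller differences of MXD minus N-CE after 2W, -0.35 for Cpa3, -0.58 and -0.23 for the Cma1 probes, -0.22 for Mcpt4, -0.41 for Fcer1a and -0.02 for Hdc. For Tpsb2 the level was 0.14 higher in the MXD pool, so its sign turned, and its VC pool, read on the arrays of both treatments, gave levels 0.26 apart. The level of Ms4a2 was also higher in the MXD pool, by 0.29. With levels scaled to the 75th percentile instead, the differences were -0.53 for Cpa3, -1.10 and -0.42 for the Cma1 probes, -0.12 for Mcpt4, 0.03 for Tpsb2, -0.76 for Fcer1a and -0.20 for Hdc. That of Ms4a2 was 0.97. At 3W the levels of the 5 protease probes were higher in the MXD pool, by 0.16 (Mcpt4) to 0.30 (Cpa3). Scaled to the 75th percentile, they were higher by 0.01 (Cma1 probe A_51_P514029) to 0.22 (Tpsb2). For Hdc the level difference at 3W was 0.09, and -0.08 after that scaling. At 2W the VC level on MXD arrays minus that on N-CE arrays was 0.27 for Cpa3, -0.05 and 0.40 for Cma1. It was 0.05 for Mcpt4, -0.04 for Fcer1a and 0.32 for Hdc. These VC readings enter the differences of folds, and the SD over 2 arrays need not show them. The differences between the treatments rest on 1 pool a treatment and were not tested within a week.

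Across weeks, the 3 weekly folds of a treatment were tested with limma, which takes the weeks as replicates and so counts change over time as error. With MXD the mean over 3 weeks ran from -0.44 ± 0.19 (SE) for Ms4a2 to 0.13 ± 0.27 (SE) for Hdc, and Cpa3 had -0.23 ± 0.24 (SE). The Ms4a2 means include weeks in which its treated pool was not above background. The lowest limma adjusted p among the 8 probes was 0.586. With N-CE the means ran from -0.16 ± 0.27 (SE) for Ms4a2 to 0.07 ± 0.24 (SE) for Fcer1a, and each limma adjusted p was 1. For MXD minus N-CE the lowest limma adjusted p was 0.772. Of 31233 probes tested, 0 (0%) had an adjusted p under 0.05 by limma in each of the 3 tests, whereas 2624, 897 and 1890 had an unadjusted p under 0.05, and none of the 8 probes was among these.

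The level of each probe in each pool was read from the single channels after normalization between arrays, as a log2 signal, with 4 arrays for each VC pool and 2 for each treated pool. Levels of different probes cannot be compared with each other, because each probe binds with its own strength. In the VC pools the level of Cpa3 was 12.28 ± 0.12 after 1W, 11.86 ± 0.20 after 2W and 11.68 ± 0.15 after 3W (SD over 4 arrays). The level at 3W minus that at 1W was -0.60, with no overlap between the arrays. The same difference was -0.38 and -0.61 for the 2 Cma1 probes, -0.55 for Mcpt4, -0.48 for Tpsb2, -0.28 for Ms4a2 and -0.64 for Hdc, so 7 of 8 probes were lower at 3W and the arrays of the 2 weeks did not overlap for any of these. Fcer1a went the other way, from 6.53 ± 0.16 to 6.86 ± 0.09. The neighbouring weeks overlapped for most probes, 7 of 8 between 1W and 2W and 7 of 8 between 2W and 3W. All arrays of a week lay on 1 slide, so week and slide cannot be told apart in these levels. The share of all probes without overlap was not computed, so the counts of overlap describe the 8 probes alone.

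In the MXD pools Cpa3 stood at 12.48 ± 0.09, 11.15 ± 0.02 and 11.74 ± 0.09 in the 3 successive weeks, so that the 2W pool was the lowest of all 9. Cma1 probe A_51_P514029 had the same order, with 8.60 ± 0.15, 7.37 ± 0.08 and 7.93 ± 0.00. From 2W to 3W, 6 of 8 probes were higher in the MXD pools and their arrays did not overlap, the exceptions being Ms4a2 and Hdc. Each of these pools had 2 arrays, and here too the share of all probes without overlap was not computed. In the N-CE pools Cpa3 went from the highest value of the 9 pools, 12.70 ± 0.05 after 1W, to 11.50 ± 0.08 and then 11.45 ± 0.05, and the last 2 overlapped. Hdc was highest in the MXD pool of 1W, at 8.89 ± 0.11, against 8.29 ± 0.05 in the VC pool of that week and 8.39 ± 0.16 in the N-CE pool. The VC pool of a week was read both on the MXD arrays and on the N-CE arrays, and the difference between these readings of the same RNA gives the technical error of a level. At 2W this difference was 0.27 for Cpa3, -0.05 and 0.40 for the Cma1 probes and 0.32 for Hdc, all inside the range that held 95% of probes, up to 0.53 in size.

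**Figure D3:**
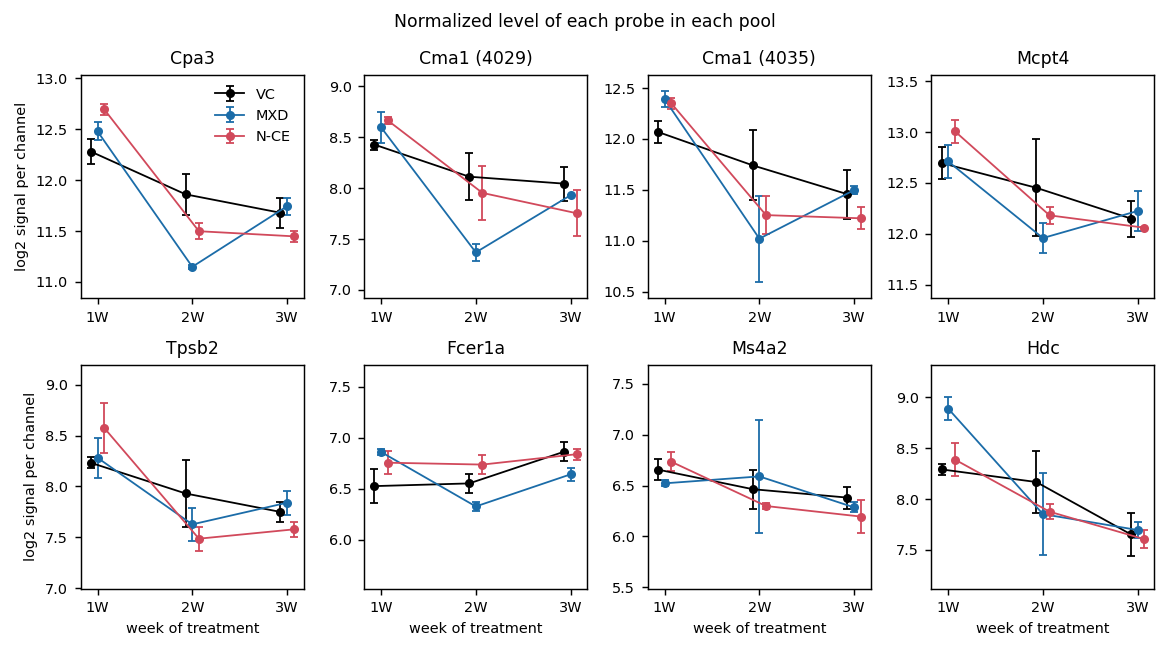
The normalized log2 signal of each probe is plotted by week for the VC (black), MXD (blue) and N-CE (red) pools, as mean ± SD over 4 arrays for VC and 2 for the treated pools. Every panel spans the same range of log2 units around its own centre. Cpa3 and both Cma1 probes dip at 2W in the MXD pool, to 11.15 for Cpa3, and Hdc stands out at 1W of MXD, at 8.89.

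The promoters of the members were searched for the words bound by GATA factors, since GATA2 is a lineage factor of mast cells. The words searched on either strand were AGATAA as well as TGATAA, together with AGATAG as well as TGATAG, within 250 bases before and 50 after the gene start in RefSeq (build GRCm38.p6). The table held 6 of the 7 members, all but Tpsb2, and each of the 6 promoters held at least 1 such word, where 29.8% of 32851 promoters did. Ms4a2 held 3 and the other members 1 each. The words began at -46 for Cpa3, -79 for Cma1, -103 for Mcpt4, -92 for Fcer1a, -221 for Hdc and -224, -37 and -11 for Ms4a2, counted in bases from the gene start. The E-box words CATGTG as well as CACGTG, which fit the factor MITF, were searched on either strand as well, and were found in Fcer1a alone, where 20.4% of promoters held one. A match is a description of the sequence, and binding was not measured here. The 250 bases before the gene start of the 3 proteases that had the lowest folds or a shared locus are shown, read along the gene from the 5′ end, with the GATA word in capitals.

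Cpa3, chr3:20242182-20242431, minus strand: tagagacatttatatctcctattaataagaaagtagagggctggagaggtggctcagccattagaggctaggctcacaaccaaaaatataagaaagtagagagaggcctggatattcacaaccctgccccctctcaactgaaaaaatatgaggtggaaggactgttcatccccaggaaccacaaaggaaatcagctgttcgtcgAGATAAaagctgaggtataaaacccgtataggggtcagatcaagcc
Cma1, chr14:55944676-55944925, minus strand: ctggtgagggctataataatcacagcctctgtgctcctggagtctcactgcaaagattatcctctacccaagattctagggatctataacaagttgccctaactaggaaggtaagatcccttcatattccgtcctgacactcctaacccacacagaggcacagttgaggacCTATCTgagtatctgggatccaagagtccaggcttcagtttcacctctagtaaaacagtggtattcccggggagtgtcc
Mcpt4, chr14:56062311-56062560, minus strand: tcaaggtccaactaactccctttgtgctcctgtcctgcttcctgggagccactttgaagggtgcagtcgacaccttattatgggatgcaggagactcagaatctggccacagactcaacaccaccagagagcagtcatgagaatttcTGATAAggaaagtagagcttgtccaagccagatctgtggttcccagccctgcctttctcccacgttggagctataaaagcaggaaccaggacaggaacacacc

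The other genes of the mast cell were described from lists of their roles, each gene by its brighter probe. At 2W of MXD, 9.31% of probes well above background in both pools were called lower and 6.51% higher. These shares are the background for the counts of that comparison below. Of further granule proteins, 7 of 12 genes on the array were above background at 2W of MXD, with a median of -0.48, and 1 was called lower, the protease inhibitor Serpinb1a at -1.17 ± 0.08. That count, 1 of 7, lies near the background. Serglycin (Srgn), the proteoglycan that holds the proteases in the granule, had -0.45 ± 0.39. Of receptors and lineage factors, 11 of 12 were above background and the median was -0.52, or -0.22 with normexp and loess. Called lower were Mrgprb2, the receptor for basic secretagogues on connective tissue mast cells, at -1.48 ± 0.34, Enpp3, a surface enzyme of mast cells and basophils, at -1.29 ± 0.23, and Il1rl1, the receptor for interleukin 33, at -0.65 ± 0.12. Called higher were Kit at 1.18 ± 0.53 and Mitf at 0.92 ± 0.23. Kit and Mitf are also melanocyte genes, and the melanocyte markers had a median of 1.32 in that comparison with 6 of 6 called higher. The part of melanocytes in the values of Kit and Mitf was not tested.

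Of the genes that carry the signal of the IgE receptor, 14 of 15 were above background at 2W of MXD, with a median of -0.56, and 3 were called lower. That median was -0.29 on array 1, -0.58 on array 2 and -0.28 with normexp and loess. The called genes were the adaptors Lat2 at -0.94 ± 0.06 and Lcp2 at -0.75 ± 0.09 and the lipid phosphatase Inpp5d at -0.88 ± 0.22. Of the enzymes that make lipid mediators, 7 of 7 were above background, the median was -0.96 and 5 were called lower. Ptgs1, a cyclooxygenase, had -1.74 ± 0.20, and Hpgds, which makes prostaglandin D, had -1.29 ± 0.29. Alox5, Ltc4s and Alox5ap of the leukotriene pathway had -1.25 ± 0.20, -0.96 ± 0.21 and -0.84 ± 0.14. Several of these genes, such as Alox5ap, Lcp2 and Inpp5d, are expressed in other white blood cells too.

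Of the genes of histamine handling, 6 of 8 were above background at 2W of MXD, with a median of -0.12. The 2 enzymes that break histamine and its product down were called lower, Hnmt at -0.96 ± 0.04 and Maob at -1.47 ± 0.03, whereas the vesicle transporter Slc18a2 had -0.04 ± 0.42. At 1W of N-CE Hnmt was called higher, at 0.64 ± 0.13, where 0.493% of probes well above background were called higher. It was the only gene of the mast cell lists whose brighter probe was called with N-CE in any week. Of the factors that act on mast cells, 2 of the 7 above background were called lower at 2W of MXD, Il33 at -1.49 ± 0.07 and Tslp at -1.01 ± 0.12, and Kitl, the ligand of Kit, had 0.26 ± 0.11. At 1W and 3W of MXD none of the genes of these 6 lists was called on its brighter probe. The study lists Il1rl1 among its most down-regulated genes at 3W of MXD, where the probe read here had -0.15 ± 0.26. Other probes of the list genes were not read. At 1W of N-CE the medians of these 6 lists lay between 0.24 and 0.31, and between 0.09 and 0.26 with normexp and loess.

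Markers of other cell types moved in the same comparisons. At 2W of MXD the macrophage markers had a median of -0.77 with 4 of 6 called lower, the fibroblast markers -0.82 with 3 of 7, the adipocyte markers -0.68 with 4 of 6 and the skeletal muscle markers -1.46 with 7 of 7. The T cell markers had a median of -1.05 with 3 of 6 called lower and Cd4 called higher, but this median was -0.27 on array 1, -1.22 on array 2 and -0.28 with normexp and loess. The hair shaft keratins had a median of 1.33 with 7 of 7 called higher, and the basal keratinocyte markers -0.32 with 1 of 5 called lower. At 1W of N-CE, where the mast cell genes had a median of 0.42, the hair shaft keratins had -2.40 with 7 of 7 called lower and the melanocyte markers -1.81 with 5 of 5 above background called lower. Of probes well above background in both pools of that comparison, 2.19% were called lower and 0.493% higher. The macrophage, fibroblast and adipocyte markers there had 0.18, 0.14 and 0.31 with none called. The T cell markers had 0.45 over 5 genes above background with none called, and the neutrophil markers 0.38 over 3 genes, of which S100a9 was called higher at 1.09 ± 0.03. The part of the make-up of the skin in the values of the mast cell genes was not tested. Of the basophil markers, 3 of 4 were above background at 2W of MXD and none was called in any comparison, and Mcpt8, the basophil protease, was not well above background in either pool of any comparison.

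**Figure D4:**
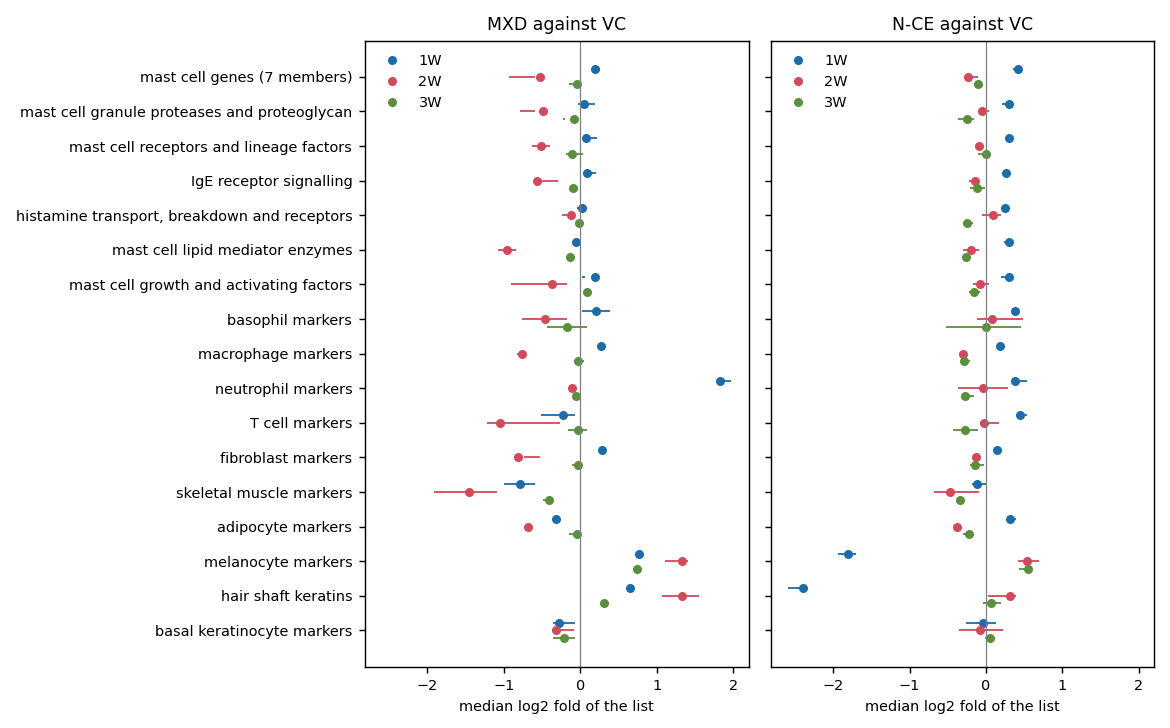
The median log2 fold over the genes of each list above background is plotted, with MXD on the left, N-CE on the right and the weeks in colour. Points are medians of the mean of both arrays, and the thin lines join the medians of the single arrays. At 2W of MXD the mast cell genes, at -0.53, lie on the same side as the macrophage, fibroblast, adipocyte and muscle markers and opposite the melanocyte markers and hair shaft keratins, at 1.32 and 1.33.

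Across the 6 comparisons, each member's folds were set against the median of the other members. Pearson's r was 0.98 for Cpa3, 0.96 and 0.95 for the Cma1 probes, 0.95 for Mcpt4 and 0.94 for Tpsb2, and lower for Hdc, Fcer1a and Ms4a2 at 0.73, 0.62 and 0.37. The granule proteases had the highest r, but they are most of the members. The median of the other members therefore rests largely on them, and this order is partly built in. Over 11616 other probes that were well above background throughout and varied enough, the 5 genes with the pattern most like the median of the members were Gpsm3, Gata2, the transcript listed as NAP026289-1, Fcer1g and L3hypdh, with r between 0.996 and 0.997. Fcer1g encodes the gamma chain of the IgE receptor and had -0.62 at 2W of MXD and 0.31 at 1W of N-CE. Gata2 encodes the mast cell lineage factor named above and had -0.52 and 0.40 in the same comparisons. Its brighter probe had -0.67 and 0.43. The macrophage markers had medians of -0.77 and 0.18 there. These correlations describe 6 points that share 3 VC pools, were the highest of many and carry no test.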

How the data were processed

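RNA of whole back skin, pooled from 6 mice for each treatment and week, was hybridized by the authors to Agilent whole mouse genome arrays. The deposited files hold scanner intensity values for each spot in both channels, log10 ratios, red (Cy5) to green (Cy3), that Agilent Feature Extraction made from background-subtracted signals normalized between the dyes with LOWESS, and a p-value for each ratio from the software's error model. The version of this software was 12.0.3.1 in the file headers and 11.0.1.1 in the submitters' processing notes, and the study's methods name an older one. The deposited matrix, used as an alternative, holds the log10 ratio of the processed signals. Its values matched those of the 43379 transcript spots on each array within 1e-05, with Cy5 over Cy3 and no centring of genes.

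Ratios were turned to treated over VC with the dyes in the labels, expressed as log2 and averaged, first within a probe and then within the dye swap, leaving out outlier spots. For a gene with several probes the brighter one stood in list medians and in the calls of list genes. Levels were computed with normexp (offset 50), loess and Aquantile. limma 3.58.1 in R 4.3.3 was fitted to the 3 weekly log2 folds over all probes above background in any pool, with Benjamini-Hochberg adjustment. The calls and the fit were tested on simulated data. The precision is limited by 1 pool a group and 2 arrays a comparison.

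The members and the gene lists were chosen with earlier results of these data known. All member probes are named, and of each list the called genes, otherwise up to 2 that changed most, were eligible to be named. Srgn, Slc18a2, Kitl, Tpsab1 and Mcpt8 were named for their roles, after their values were seen. The alternatives were normexp and loess, outlier spots kept, the arithmetic mean of folds, each array alone, the deposited matrix, a filter on dim probes, folds without the P, symmetric folds, the mean over probes of a gene, each week left out, all probes, the slide as a random block in limma, and scaling to the 75th percentile for levels.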

Additional observations from a re-analysis of the deposited data

Results flagged for a closer look

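In these probes, both arrays of one week lay above 0 and both arrays of another week below 0 under the same treatment. The change between weeks is given as the difference of mean log2 folds, later minus earlier week, and the differences were not tested. With MXD, from 1W to 2W it was -1.04 for Cpa3, -1.18 for Cma1 probe A_51_P514029, -1.20 for Cma1 probe A_51_P514035, -1.42 for Fcer1a and -1.28 for Hdc. From 1W to 3W of MXD it was -0.24 for Cpa3, -0.32 and -0.41 for the Cma1 probes in the same order, and -1.37 for Fcer1a. For Hdc the difference from 2W to 3W of MXD was 0.68. The level of Hdc in the MXD pool did not rise between these weeks. It changed by -0.16, and that in the VC pool by -0.52, with overlapping arrays in both. With levels scaled to the 75th percentile these changes were -0.32 and -0.77. With normexp and loess the differences of Fcer1a became -0.61 (1W to 2W) and -0.55 (1W to 3W).

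With N-CE, the difference from 1W to 2W was -0.70 for Cpa3, -0.60 and -0.66 for the Cma1 probes and -0.35 for Hdc, the last -0.20 with normexp and loess. From 1W to 3W of N-CE it was -0.57 for Cpa3, -0.67 for Cma1 probe A_51_P514029 and -1.04 for Fcer1a. With normexp and loess that of Fcer1a became -0.26, and the level of Fcer1a in the N-CE pool was 0.08 higher after 3W than after 1W, with overlapping arrays, whereas that difference was -0.19 with levels scaled to the 75th percentile. Ms4a2 is left out here because its treated pool was not above background in the later weeks. Each week is another slide and another VC pool, so time, slide and pool cannot be told apart in these differences.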

How the results depend on the processing

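The calls of Hdc at 1W of MXD and of Cpa3 and both Cma1 probes at 2W of MXD held under every alternative tried, and no member's called fold changed sign. Normexp and the deposited matrix kept the spot's deposited P, so only the fold could change. The matrix and the outlier spots left the member folds as they were, so these 2 alternatives could not alter a call. Leaving out 1 array moved the number of member probes called higher at 1W of MXD (1) to between 1 and 2, that called lower at 2W of MXD (3) to between 3 and 5, that called lower at 3W of MXD (0) to between 0 and 1, that called higher at 1W of N-CE (0) to 1 with either array, and that called lower at 2W of N-CE (0) to between 0 and 2. The higher counts for MXD and for N-CE at 2W came without array 1. On array 2 alone the shares of all probes called in the same direction were 1.63%, 9.25% and 0.608% at 1W, 2W and 3W of MXD. For N-CE they were 1.29% at 1W and 1.45% at 2W. On array 1 alone the shares were 1.86%, 10.1%, 0.618%, 1.27% and 0.964% in the same order. With the P criterion dropped, the counts were 2 higher at 1W of MXD, 7 lower at 2W, 2 lower at 3W and 2 lower at 3W of N-CE, where 2.97%, 14.6%, 2.85% and 3.6% of all probes passed. On single arrays the median of the members ranged from 0.20 to 0.25 at 1W, -0.94 to -0.59 at 2W and -0.15 to -0.030 at 3W of MXD, and from 0.36 to 0.38 at 1W of N-CE. That last median (0.42) was 0.24 with normexp and loess and 0.45 with the arithmetic mean of folds.

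Of the 48 member folds, 11 moved by at least their SD with normexp and loess, all 11 toward 0, 4 of them of Fcer1a. A single called fold was among these, that of Cma1 probe A_51_P514029 at 2W of MXD, from -1.0 to -0.72. It stayed called with the spot's deposited P. The difference in VC level from 2W to 3W of Fcer1a was 0.31 after Aquantile and 0.78 with scaling to the 75th percentile, and that of Ms4a2 from 1W to 2W was -0.19 and -0.52. In limma 0 member probes passed under all alternatives, with each week left out, normexp, all probes or the slide as a random block, and over all probes the count was 0 as well except for 1 probe with the slide as a block for MXD. Mice could not be paired, because the replicate numbers of the arrays mark the dye orientation and the pools carry none. The pools were matched by week alone. Dim signals limit Ms4a2 and, in part, Fcer1a.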
